A study of Mus musculus with 3 samples.

Results

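The cytosolic ribosomal protein genes were taken as every gene whose symbol is Rpl or Rps followed by a number and, at most, a closing a, x or l. This rule uses the name alone and found 76 of the 17992 genes counted, 45 named for the large subunit and 31 for the small subunit. The ribosome is the particle that translates mRNA into protein, and its subunits are built in the nucleolus from ribosomal RNA and the proteins these genes encode. The mRNAs of the proteins are short and abundant, and they begin with a run of pyrimidines through which the mTOR pathway controls their translation. In the brain, neurons and glia both need them, and neurons also carry ribosomes into their processes.

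Read counts came from 3 libraries of adult wild-type (WT) C57BL/6 mouse brain, 1 per group. The AGNHW group received AGNHW, short for Angong Niuhuang Wan, a compound medicine of the Chinese tradition, at 3 mg per g per day, the Vehicle group had middle cerebral artery occlusion (a block of a main forebrain artery), and the Sham group was the sham-operated control. The labels name the occlusion model beside Vehicle alone, so whether the AGNHW mice were occluded is not stated. Nor do the sources used here give the brain region, the time after occlusion or the number of mice per library.

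The libraries held 18184691 counts (AGNHW), 15718594 counts (Vehicle) and 18286151 counts (Sham). The Vehicle library stood apart in genes of other tissues: 7 counted pituitary markers summed to 84 counts in AGNHW, 56959 in Vehicle and 83 in Sham, and 5 red blood cell markers to 1188, 2481 and 994 counts in the same order. The pituitary markers Gh and Prl were at 4 and 1 counts in AGNHW, 39065 and 5606 in Vehicle, and 0 in Sham. Summed markers of astrocytes (4 genes) were 28917 counts in AGNHW, 20788 in Vehicle and 37960 in Sham, or 0.159%, 0.132% and 0.208% of all counts. For microglia (3 genes) they were 2208, 1565 and 2816 counts, or 0.0121%, 0.00996% and 0.0154%. For oligodendrocytes (3 genes) they were 110224, 96924 and 96463 counts, or 0.606%, 0.617% and 0.528%, so that Vehicle was highest by share. The 5 leukocyte markers counted summed to 244, 217 and 191 counts, or 0.00134%, 0.00138% and 0.00104%. The 3 skeletal muscle markers summed to 176, 183 and 178 counts, or 0.000968%, 0.00116% and 0.000973%. The 6 neuronal markers made up 0.594% of the counts in AGNHW, 0.605% in Vehicle and 0.622% in Sham, and the testis markers Prm1 and Tnp1 were not among the genes counted. With 1 library per group there is no replicate check and no test, so "higher" and "lower" describe these libraries, and intervals are 95% exact intervals that cover counting error only. The size rule asked for a ratio of at least 1.5 either way, a mean of at least 1 CPM (counts scaled to a common library size with edgeR's TMM) and an interval that excluded 1. Of the 76 genes, 74 had that mean and were compared, among 15558 genes in all.

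The genes are spread over 19 chromosomes, with 4 on the X (Rpl10, Rpl36a, Rpl39 and Rps4x). The naming rule did not use their structure. Their transcripts were short, with a median length of 776 nt against 2623 nt for the genes compared, and 74 of the 76 lay below that second value. Their median GC content of 51.9% was close to the 50.9% of the genes compared.

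A RefSeq promoter window (GRCm38.p6, 250 bases before to 50 bases after the annotated start) was matched by symbol for 55 of the 76 genes. The windows below run from 60 bases before to 30 bases after the start and belong to the 3 genes with the highest and the 3 with the lowest Vehicle to Sham ratio among those with a single window that could be printed. They are shown so that the start regions of the genes at the ends of the range can be read side by side. Capitals mark CCGGAAG or its reverse complement CTTCCGG, the core bound by ETS-family factors such as GABP, and CTTTC on the sense strand within 30 bases of the start, the kind of pyrimidine run with which these mRNAs begin.
Rpl38: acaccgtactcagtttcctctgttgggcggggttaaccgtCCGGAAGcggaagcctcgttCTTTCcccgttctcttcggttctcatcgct
Rpl18: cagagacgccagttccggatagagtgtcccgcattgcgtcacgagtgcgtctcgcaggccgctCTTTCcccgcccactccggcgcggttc
Rps18: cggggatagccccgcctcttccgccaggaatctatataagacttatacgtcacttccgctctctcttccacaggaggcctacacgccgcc
Rps10: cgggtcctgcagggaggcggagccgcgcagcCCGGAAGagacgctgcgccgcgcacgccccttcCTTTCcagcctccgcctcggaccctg
Rpl6: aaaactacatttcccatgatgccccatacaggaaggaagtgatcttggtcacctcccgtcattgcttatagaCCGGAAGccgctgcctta
Rpl15: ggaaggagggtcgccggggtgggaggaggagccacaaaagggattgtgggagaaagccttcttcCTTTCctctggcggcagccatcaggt
They lie at chr11:114668520-114668609 on the plus strand (Rpl38), chr7:45718011-45718100 plus (Rpl18), chr17:33955636-33955725 minus (Rps18), chr17:27635215-27635304 minus (Rps10), chr5:121204441-121204530 plus (Rpl6) and chr14:18270957-18271046 minus (Rpl15). The first 3 had log2 ratios of 0.88, 0.80 and 0.79, and the last 3 of 0.17, 0.23 and 0.28. Both motifs occur at both ends of the range: Rpl38 and Rps10 hold each of them, and Rps18 holds neither in these letters.

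Over the whole 300-base windows, CCGGAAG on either strand was present in 22 of the 55 genes (40.0%), against 9.93% of all 27025 genes with a window. CTTTC on the sense strand within 30 bases of the start was present in 19 genes (34.5%), against 9.18% of all genes. On the antisense strand it was present in 6 genes (10.9%), against 8.58%. GGGCGG, the core of the GC box, was present on either strand in 58.2% of the 55 genes and 38.2% of all genes, AAGATGGC, a core bound by YY1, in 9.09% and 3.19%, and TATAAA in 9.09% and 15.7%. No motif in this search contains another. The median Vehicle to Sham log2 ratio was 0.63 in the 22 genes with CCGGAAG and 0.61 in the 31 compared genes whose window lacks these letters. It was 0.55 in the 19 genes with CTTTC near the start and 0.62 in the 34 without. With the trend in length and GC content removed, as described below, the medians were 0.18 with and 0.29 without CCGGAAG, the opposite order, and 0.17 with and 0.26 without CTTTC.

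The genes together took 1.36% of all counts in AGNHW (interval 1.35 to 1.36), 1.59% in Vehicle (1.58 to 1.59) and 1.09% in Sham (1.09 to 1.10). Per transcript length, the median gene was at 206 CPM per kb in AGNHW, 262 in Vehicle and 166 in Sham. Of the 76 genes, 71 had a mean of at least 10 CPM and 69 of at least 50 CPM, so nearly the whole set was well above the detection limit in each library.

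**Figure D1:**
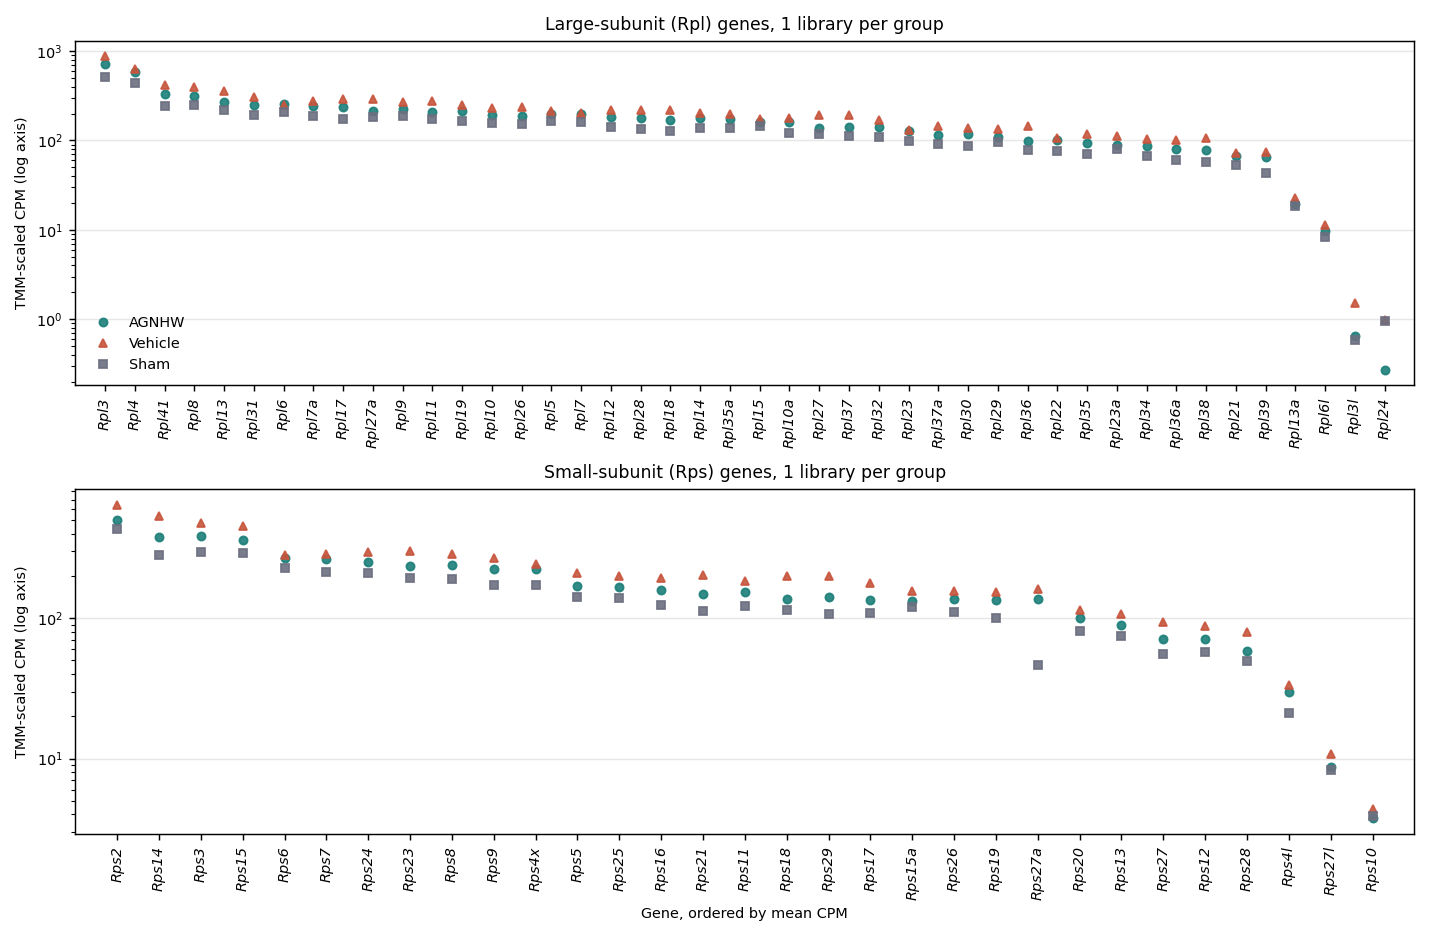
TMM-scaled CPM (log axis) of 75 of the 76 ribosomal protein genes in the AGNHW, Vehicle and Sham libraries, ordered by mean CPM. The Vehicle point is the highest for most genes, and a few genes at the low end, among them Rps10, Rpl24 and Rpl3l, lie far below the rest.

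The highest level per length was that of Rps15, a protein of the head of the small subunit, with 672 CPM per kb in AGNHW, 841 in Vehicle and 543 in Sham. Rpl41, the smallest protein of the ribosome, followed with 627 CPM per kb in AGNHW, 785 in Vehicle and 460 in Sham. Rps14, a platform protein of the small subunit, had 573 CPM per kb in AGNHW, 806 in Vehicle and 422 in Sham. The order of these 3 differed between libraries, with Rps14 above Rpl41 in Vehicle and below it in AGNHW and Sham. The next places were held by Rps2 and by Rpl3, a large-subunit protein that reaches towards the peptidyl transferase centre, with means of 527 and 520 CPM per kb. Annotated lengths of 5130 nt for Rps15a and 3706 nt for Rps20, far above the others, lower their levels per length and enter the length-corrected values below.

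Few genes had low counts. Rpl3l, the paralogue of Rpl3 known from heart and skeletal muscle, had 12 counts in AGNHW, 23 in Vehicle and 11 in Sham. Rpl24, a protein of a bridge between the subunits, had 5 counts in AGNHW, 15 in Vehicle and 18 in Sham, although the protein is a part of every ribosome. Rps10, which is ubiquitinated when ribosomes collide, had 69 counts in AGNHW, 67 in Vehicle and 73 in Sham. For Rps10, the pseudogenes named after it held more reads than the gene, with 925 counts in AGNHW, 873 in Vehicle and 714 in Sham, and it was the only gene of the set for which that was so. Rpl13a, known in human cells for a role in interferon-induced control of translation, had 356, 344 and 347 counts, several times below its neighbours in the ribosome. Of the 76 genes, 39 have pseudogenes named after them among the genes counted (64 in all). The sources used here do not say how reads of near-identical copies were assigned, so the counts of such genes are uncertain. Copies under other names were not looked for, so genes without a named copy, among them Rpl24 and Rpl13a, may share this limit. Nor do the sources say whether strand was used, so overlapping genes cannot be told apart either.

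Vehicle was set against Sham to describe the occlusion model itself. All 74 genes compared were higher in Vehicle, with a median log2 ratio of 0.62 (a ratio of 1.54), a range of 0.17 to 1.80 and the middle 50% between 0.51 and 0.70. The median over all genes compared was 0.01. Of the 74, 43 rose past the size rule and 0 fell, where 8.66% of all genes compared rose and 14.2% fell. With plain CPM, without the TMM factors, 24 rose, where 5.72% of all genes did. The interval lay above 1 for 73 genes and spanned it only for Rps10. Summed over the 76 genes, the ratio was 1.54 (1.53 to 1.55).

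Many genes lay close to the 1.5-fold limit: 16 had ratios of 1.4 to 1.5 and 19 of 1.5 to 1.6, so the count of 43 rests on where the limit is set, and the direction and the median describe the set better. The large and small subunits moved alike. The summed ratio was 1.54 (1.52 to 1.55) for the large and 1.55 (1.54 to 1.57) for the small subunit, with 26 of 43 and 17 of 31 genes past the size rule. Of the marker lists above, all 6 pituitary and all 5 red blood cell genes compared were higher in Vehicle past the size rule. Of the 4 astrocyte markers 2 were lower and 1, Aldh1l1, higher (ratio 1.65), and of the 3 microglial markers 2 were lower. Of the 3 oligodendrocyte markers 1 was lower and 0 higher, with a list median of 0.32. Of the 6 neuronal markers 0 passed the size rule either way, with a list median of -0.05. Of 3 leukocyte markers compared 1 was higher and 1 lower, and of 2 skeletal muscle markers 1 was higher and 0 lower. The part of these marker lists in the ratios was not tested. In whole tissue, a higher share of cells rich in these mRNAs and more mRNA per cell cannot be told apart. With 1 library per group, a technical difference between libraries cannot be told apart from a difference between groups either.

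**Figure D2:**
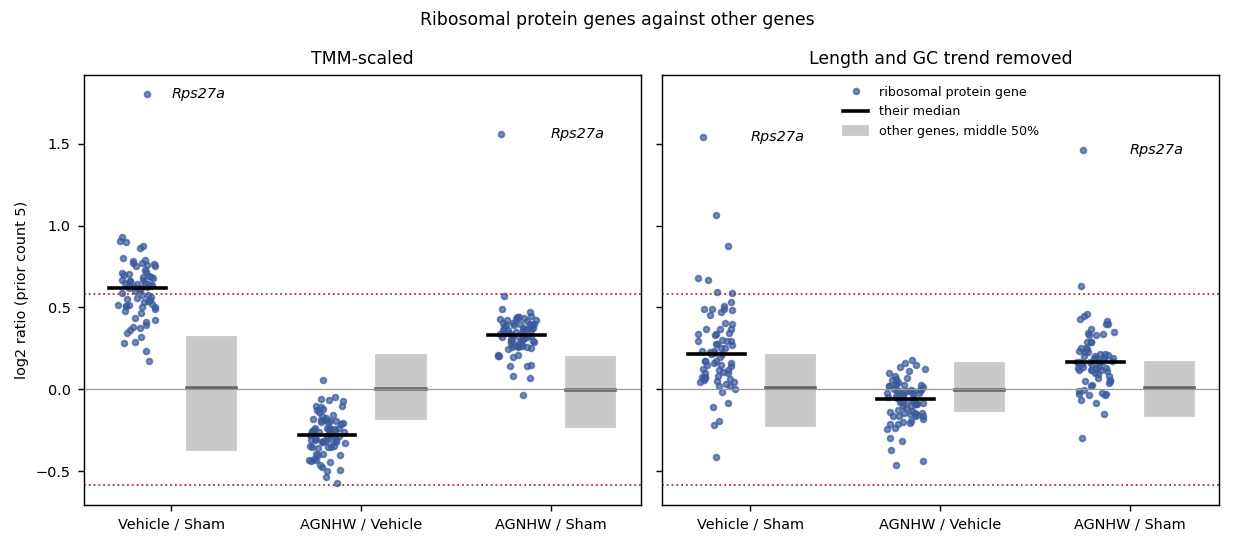
Log2 ratios of the 74 ribosomal protein genes compared (points, with their median as a black bar) beside the middle 50% of all other genes (grey boxes), before (left) and after (right) the trend with transcript length and GC content was removed; dotted lines mark 1.5-fold. The Vehicle to Sham points sit above 0 around a median of 0.62 and move to 0.22 after the correction, with Rps27a above all others in both panels.

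Rps27a moved most. It encodes a fusion of ubiquitin with small-subunit protein S27a, which is cut apart after translation. It had 2508 counts in AGNHW, 2471 in Vehicle and 873 in Sham, or 137, 163 and 46.4 CPM. Both other libraries were thus well above Sham, and the ratio of Vehicle to Sham was 3.502 (3.24 to 3.79). The next gene, Rps14, was at 1.91, so Rps27a stood outside the range of the other 73, which ended at a log2 ratio of 0.93.

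The 2 pseudogenes named after Rps27a ran the other way. Together they had 76 counts in AGNHW, 81 in Vehicle and 157 in Sham, a Vehicle to Sham ratio of 0.638 (0.482 to 0.840). Adding their reads to the gene gave 2584 counts in AGNHW, 2552 in Vehicle and 1030 in Sham, a Vehicle to Sham ratio of 3.07 (2.85 to 3.30). Fau, whose symbol falls outside the rule, was closer to the rest of the set. This gene, the fusion of a ubiquitin-like domain with small-subunit protein S30, had 214 CPM in AGNHW, 290 in Vehicle and 161 in Sham, a Vehicle to Sham ratio of 1.80. The polyubiquitin gene Ubb, looked at after these values were seen, had a ratio of 1.49.

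**Figure D3:**
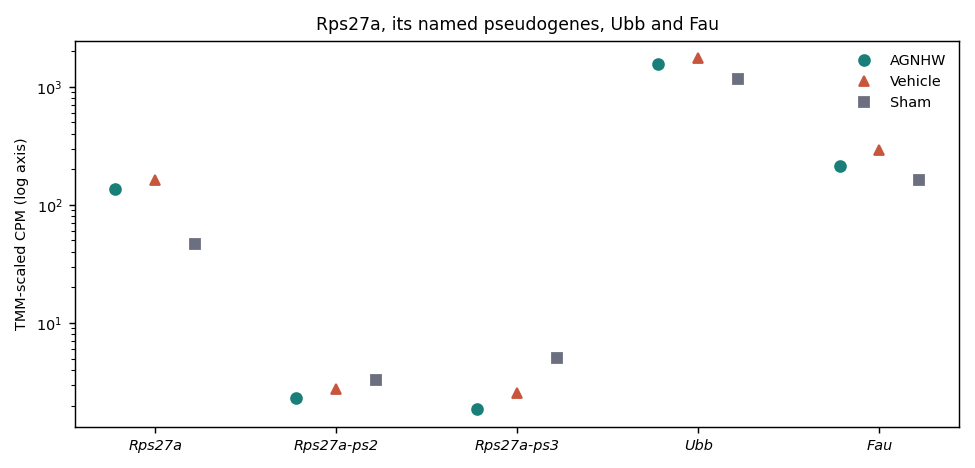
TMM-scaled CPM (log axis) of Rps27a, its named pseudogenes and the genes Ubb and Fau, which encode repeated ubiquitin and a fused ubiquitin-like domain, in the AGNHW, Vehicle and Sham libraries. Rps27a is at 137 and 163 CPM in AGNHW and Vehicle and at 46.4 CPM in Sham, while its pseudogenes are highest in Sham.

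Several of the next genes have very short transcripts. Rps14, whose loss of a single copy marks the human 5q- syndrome, had 382 CPM in AGNHW, 537 in Vehicle and 282 in Sham, with a Vehicle to Sham ratio of 1.91 (1.84 to 1.98). Rpl36, of the large subunit, had 98.3 CPM in AGNHW, 147 in Vehicle and 78.0 in Sham, with a ratio of 1.88 (1.76 to 2.01). Rps29, of the small-subunit head, had 142 CPM in AGNHW, 201 in Vehicle and 108 in Sham, with a ratio of 1.87 (1.77 to 1.98). All 3 were highest in Vehicle, with AGNHW nearer to Sham than to Vehicle. Over the 74 genes, the median log2 ratio was -0.28 for AGNHW to Vehicle and 0.33 for AGNHW to Sham. The 3 genes were picked by their Vehicle to Sham ratio, which favours a high Vehicle value. Rpl38, which is needed for the translation of some Hox mRNAs in the mouse embryo, had 77.8 CPM in AGNHW, 105 in Vehicle and 57.1 in Sham, with a ratio of 1.84 (1.70 to 1.99). Rps21 had a ratio of 1.821, Rpl18 of 1.748, Rps18 of 1.73 and Rpl37 of 1.72. Rpl41 and Rpl39, which reaches into the exit tunnel for the growing chain, both had a ratio of 1.71. Rps27, Rpl35 and Rpl3 followed with 1.70, 1.69 and 1.68.

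At the low end, Rps10 had 3.78 CPM in AGNHW, 4.41 in Vehicle and 3.88 in Sham, a Vehicle to Sham ratio of 1.14 (0.803 to 1.604). Rpl6 had 257 CPM in AGNHW, 247 in Vehicle and 210 in Sham, a ratio of 1.18 (1.12 to 1.23). Rps6, the small-subunit protein phosphorylated by the S6 kinases downstream of mTOR, had 270 CPM in AGNHW, 284 in Vehicle and 228 in Sham, a ratio of 1.246 (1.19 to 1.30). Apart from Rps10, these are well-counted genes whose ratios lay below 1.5 by more than the counting error. Rpl15 and Rpl13a had ratios of 1.22 and 1.23. With the reads of its pseudogenes added, Rps10 had a ratio of 1.48 (1.34 to 1.63), so its place at the bottom depends on how reads of the copies were assigned.

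Genes with roles beyond the ribosome lay across the range. Rpl5 and Rpl11, which bind 5S RNA and, when free of the ribosome, the p53 regulator Mdm2, had ratios of 1.29 (1.23 to 1.35) and 1.62 (1.54 to 1.69). Rpl5 had 197 CPM in AGNHW, 211 in Vehicle and 164 in Sham, and Rpl11 had 205 CPM in AGNHW, 278 in Vehicle and 172 in Sham. Before correction for length and GC content, described below, the intervals of this pair did not overlap and only Rpl11 passed the size rule. After it the order turned, with Rpl5 at 1.601 (1.52 to 1.68) and past 1.5-fold, and Rpl11 at 1.19 (1.14 to 1.249) and no longer past it. Rps19, the gene most often mutated in human Diamond-Blackfan anaemia, had a ratio of 1.54 (1.45 to 1.63). Rpl10, which joins late and is X-linked, had 1.504 (1.43 to 1.58), and the X-linked Rps4x had 1.42 (1.35 to 1.48). Rpl22, whose loss mice tolerate with more of its paralogue Rpl22l1, had 1.38 (1.29 to 1.49), and the paralogue had 1.18.

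The paralogues within the set were all far below their partners. Rps27l, known as a p53 target, had 8.65 CPM in AGNHW, 10.8 in Vehicle and 8.24 in Sham, with a Vehicle to Sham ratio of 1.31 (1.05 to 1.64), while Rps27 had 71.4, 93.8 and 55.3 CPM in the same order. Rps4l, annotated as a transcribed processed pseudogene in GENCODE, had 30.01 CPM in AGNHW, 33.5 in Vehicle and 21.3 in Sham, with a ratio of 1.58 (1.38 to 1.80). Rpl6l, annotated as a processed pseudogene, had 9.75 CPM in AGNHW, 11.2 in Vehicle and 8.40 in Sham, with a ratio of 1.34 (1.07 to 1.67). They moved in the direction of the set and at levels where counting error is wide. Rpl39l was not among the genes counted.

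The ratios of all genes followed transcript length and GC content, and that trend bears on a set of such short transcripts. Length and GC together accounted for 46.0% of the variance of the Vehicle to Sham log2 ratio over 9870 genes outside the set with at least 10 CPM. In the shortest of 10 length bins (58 to 948 nt), which holds 54 of the 74 genes, the other genes had a median log2 ratio of 0.35 and the ribosomal protein genes 0.64. In the next bin (949 to 1414 nt, 15 genes) the medians were 0.28 for the others and 0.56 for the set. Of the 54 genes in the shortest bin, 50 lay above the median of the other genes there, as did 14 of the 15 in the next. In the longest bin, which holds none of the set, the median was -0.40. By these medians, short genes in general were thus higher in Vehicle, and the ribosomal protein genes more so than other short genes. The bins match genes by length alone, not by GC content or level. With the trend in length, GC content and level removed, the median of the set was 0.17. The source of the trend was not tested.

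**Figure D4:**
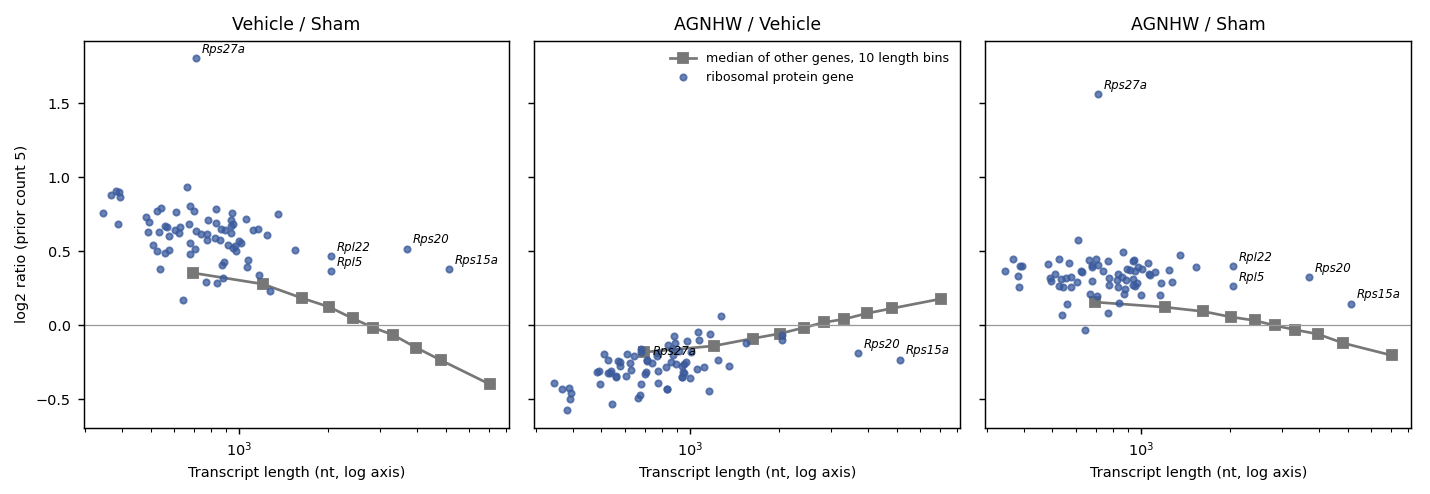
Log2 ratio against transcript length (nt, log axis) for the ribosomal protein genes (points) and the median of all other genes in 10 length bins (squares and line), for the Vehicle to Sham, AGNHW to Vehicle and AGNHW to Sham comparisons. The medians fall with length for Vehicle to Sham and rise with length for AGNHW to Vehicle, and most of the points lie on the far side of the line from 0 among short genes.

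With the trend removed, the median of the 74 genes was 0.22, with 68 above 0 and 6 below, and the median of all genes was 0.01. Then 7 of the 74 rose past 1.5-fold and 0 fell, where 4.46% of all genes with a length rose and 7.31% fell. The 7 were Rps27a at a corrected log2 ratio of 1.54, Rps20 at 1.07, Rps15a at 0.87, Rpl5 at 0.68, Rpl17 at 0.67, Rpl37 at 0.60 and Rps23 at 0.59. Rps20, Rps15a and Rpl5 passed only after the correction, with uncorrected ratios of 1.43, 1.30 and 1.29. Their annotated lengths, medians over transcripts, are long for the set (3706, 5130 and 2045 nt), and their annotated GC content is low (41.3%, 45.4% and 42.7%). The length of the mRNAs present in these libraries was not measured, so these calls depend on the annotation. Rps27a kept most of its difference, while Rpl36 went to 0.12 and Rpl38 to 0.16. Across the 74 genes, Spearman's rho of the uncorrected ratio was -0.42 with length and 0.34 with GC content, and that of the corrected ratio was 0.28 with length and -0.75 with GC content. The genes share their libraries and their composition, so these are descriptions, and the correction left the GC-rich genes of the set lower than the GC-poor ones.

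AGNHW was then set against Vehicle, a comparison that shares the Vehicle library with the one above. With the occlusion not stated for the AGNHW mice, a difference of treatment and of occlusion cannot be told apart here. Of the 74 genes, 73 were lower in AGNHW, with a median log2 ratio of -0.28 (a ratio of 0.826), a range of -0.57 to 0.06 and a median over all genes of 0.002. The interval lay below 1 for 64 genes. None passed the size rule (0 higher and 0 lower), where 4.01% of all genes rose and 2.56% fell. Summed over the set the ratio was 0.823 (0.819 to 0.828).

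Of the 5 lowest, Rpl36, Rps29 and Rps14 were also among the 5 highest in Vehicle against Sham, through the same Vehicle library. The ratio of AGNHW to Vehicle was 0.671 (0.630 to 0.714) for Rpl36, 0.690 (0.654 to 0.727) for Rps18 and 0.706 (0.670 to 0.745) for Rps29. Rps14 followed at 0.711 and Rpl27 at 0.720. At the other end Rpl6 was at 1.04 (0.999 to 1.09), Rpl23 at 0.967, Rpl7 at 0.961, Rpl22 at 0.954 and Rps6 at 0.951. Rps27a was at 0.845 (0.799 to 0.894), near the middle of the set. Rpl5 was at 0.932 and Rpl11 at 0.739, Rps19 at 0.879, Rpl41 at 0.799, Rpl10 at 0.823, Rps4x at 0.927, Rps27l at 0.802 and Rps4l at 0.895. No single gene of the set stood outside the others here.

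In the shortest length bin the other genes had a median of -0.18 and the set -0.31, and 48 of the 54 genes lay below the median of the others. With the length and GC trend removed, the median of the set was -0.059, with 20 genes above 0 and 54 below, and 0 passed 1.5-fold either way, where 3.04% of all genes rose and 1.73% fell. The pituitary and red blood cell markers were lower in AGNHW than in Vehicle in all 6 and 5 genes compared. Of the 4 astrocyte and 3 microglial markers, 1 of each list was higher past the size rule and 0 lower, with list medians of 0.17 and 0.55. Of the 3 oligodendrocyte markers 0 passed the size rule either way, with a list median of -0.14. The same held for the 6 neuronal markers, with a list median of -0.02. Of 3 leukocyte markers compared 1 was higher and 0 lower, and of 2 skeletal muscle markers 0 passed either way. The part of all these marker lists in the ratios was not tested.

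The comparison of AGNHW with Sham does not use the counts of the Vehicle library in its ratios. Vehicle enters it only through the TMM factors and the mean CPM by which genes were chosen. Of the 74 genes, 73 were higher in AGNHW, with a median log2 ratio of 0.33 (a ratio of 1.26), and the interval lay above 1 for 70. The summed ratio was 1.27 (1.26 to 1.28). Only Rps27a rose past the size rule and 0 fell, where 3.32% of all genes rose and 5.47% fell. The 7 pituitary markers were at 84 counts in AGNHW and 83 in Sham, while 2 of the 4 astrocyte markers (list median -0.49) and 2 of the 3 microglial markers (list median -0.71) were lower in AGNHW past the size rule. Of the 3 oligodendrocyte markers 0 passed the size rule either way, with a list median of 0.13. The same held for the 6 neuronal markers, with a list median of 0.03. Of 3 leukocyte markers compared 1 was higher and 0 lower, and of 2 skeletal muscle markers 1 was higher and 0 lower. The part of these marker lists in the ratios of AGNHW to Sham was not tested.

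Rps27a had a ratio of AGNHW to Sham of 2.96 (2.74 to 3.201). It was followed by Rpl39 at 1.49 (1.36 to 1.63), Rps4l at 1.41 (1.24 to 1.61) and Rpl3 at 1.39 (1.35 to 1.42), with Rpl41 and Rpl38 at 1.36 each. The lowest were Rps10 at 0.974 (0.691 to 1.37), Rps27l at 1.05, Rpl13a at 1.06, Rpl23a at 1.10 and Rps15a at 1.11. Rps14 was at 1.36, Rps19 at 1.35, Rpl22 at 1.32, Rps4x at 1.31, Rpl10 at 1.24, Rpl5 and Rpl11 both at 1.20 and Rps6 at 1.19. Apart from Rps27a, the genes lay in a narrow band, 70 of them between 1.0 and 1.4. With the trend removed the median was 0.17, with 63 genes above 0 and 11 below. Then Rps27a at 1.46 and Rps20 at 0.63 rose past 1.5-fold and 0 fell, where 2.88% of all genes rose and 3.21% fell.

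Over the 3 libraries, 72 of the 74 genes (97.3%) were highest in Vehicle and lowest in Sham, an order shown by 31.3% of all genes compared. The exceptions were Rpl6, highest in AGNHW, and Rps10, lowest in AGNHW. The share of 31.3% is over genes of all lengths. In the shortest length bin the medians of the other genes had the same order. They were 0.35 for Vehicle to Sham, -0.18 for AGNHW to Vehicle and 0.155 for AGNHW to Sham. The AGNHW to Vehicle interval lay below 1 for 64 of the 74 genes. With the length and GC trend removed, 20 of the 74 were above 0 in that comparison.

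Other genes of protein synthesis were taken from lists by symbol or role. Of 9 compared ribosomal proteins whose symbols fall outside the rule, among them the stalk proteins Rplp0, Rplp1 and Rplp2, 3 rose in Vehicle against Sham and 0 fell, with a median of 0.58, where 8.66% of all genes compared rose and 14.2% fell. The 43 compared ribosomal protein pseudogenes had a median of 0.58, with 18 higher and 1 lower, the last being a pseudogene of Rps27a. The 77 mitochondrial ribosomal protein genes, which serve the separate ribosome of mitochondria, had a median of 0.37, with 15 higher and 0 lower. With the length and GC trend removed, 0 of the 9 ribosomal proteins outside the rule passed 1.5-fold either way. Of the 38 pseudogenes with a length 0 then rose and 1 fell, and of the 77 mitochondrial genes 7 rose and 0 fell. Of all genes with a length, 4.46% rose and 7.31% fell. Among 11 elongation factors the median was 0.41, with 1 higher (Eef1d, ratio 1.61) and 1 lower (Eif5a2, ratio 0.530). With the trend removed, 0 of the 11 passed 1.5-fold either way.

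The shares over all genes, 8.66% higher and 14.2% lower, are also the measure for the counts that follow. Of 39 initiation factors 8 rose and 4 fell, with a median of 0.14, and with the length and GC trend removed 2 rose and 0 fell; those that rose included Eif3f, Eif3g, Eif3h, Eif3i and Eif3k of the eIF3 complex, and its largest subunit Eif3a was among those that fell. Of 46 ribosome biogenesis factors 3 rose and 2 fell, with a median of 0.13. Of 15 genes of RNA polymerase I, which transcribes ribosomal RNA, 0 rose and 1 fell, with a median of 0.08. Of 25 genes of the mTOR pathway and its targets 1 rose and 6 fell, with a median of -0.01; the S6 kinase gene Rps6kb1 had 22.5 CPM in AGNHW, 19.1 in Vehicle and 32.6 in Sham. Of 16 ribosome quality control and stress genes 2 rose and 3 fell, with a median of -0.05. In that list Cdkn1a, a p53 target that stops the cell cycle, had 86.2 CPM in AGNHW, 100.2 in Vehicle and 20.5 in Sham. Mdm2, of the same list, had 37.2 CPM in AGNHW, 36.6 in Vehicle and 38.4 in Sham. Its Vehicle to Sham ratio was 0.951 (0.850 to 1.064). Of 13 non-coding host genes of small nucleolar RNAs, 3 rose and 1 fell, with a median of 0.39. With the length and GC trend removed, 1 of the 46 biogenesis factors rose and 0 fell. Of 13 RNA polymerase I genes with a length 0 then passed either way. Of the 25 mTOR pathway genes 0 rose and 3 fell, and of the 16 quality control and stress genes 2 rose and 0 fell. Of 12 host genes with a length 1 rose and 1 fell. Of all genes with a length, 4.46% rose and 7.31% fell.

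**Figure D5:**
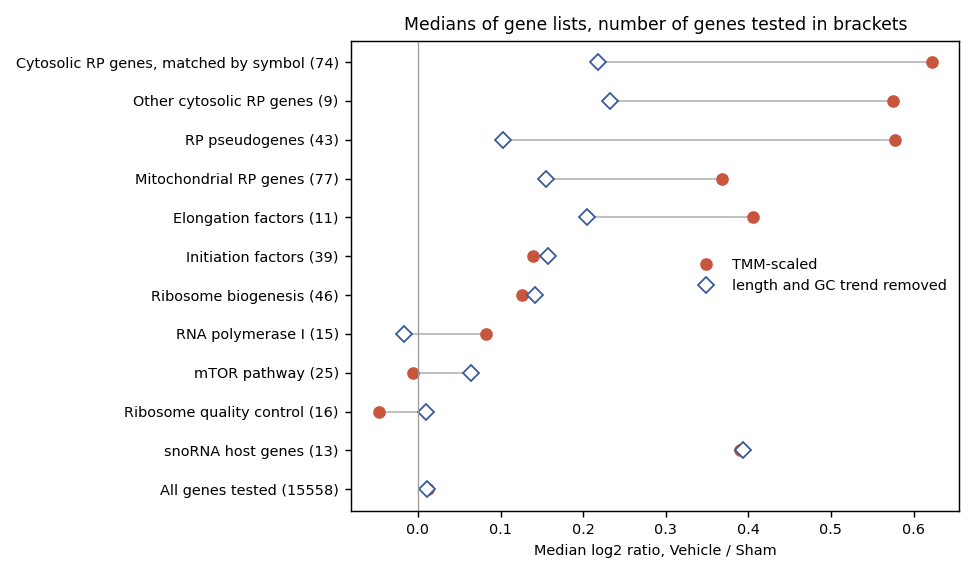
Median log2 ratio of Vehicle to Sham for the ribosomal protein genes and for lists of related genes (rows, with the number of genes compared), before (filled circles) and after (open diamonds) the trend with length and GC content was removed. The 3 lists of cytosolic ribosomal protein genes and pseudogenes lie at 0.58 to 0.62 before the correction and at 0.10 to 0.23 after it.

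With the trend removed, the list medians were 0.22 for the ribosomal protein genes, 0.23 for those outside the rule, 0.10 for the pseudogenes, 0.16 for the mitochondrial ribosomal proteins and for the initiation factors, 0.21 for the elongation factors, 0.14 for the biogenesis factors, 0.39 for the host genes, 0.06 for the mTOR pathway, 0.01 for the quality control and stress genes and -0.02 for RNA polymerase I. In AGNHW against Vehicle, none of the ribosomal proteins outside the rule, mitochondrial ribosomal proteins, elongation, initiation or biogenesis factors passed the size rule (0 in each list). Of the 25 mTOR pathway genes 3 rose (2 with the trend removed), where 4.01% of all genes did (3.04% with the trend removed). Of 43 pseudogenes 5 fell and 0 rose, and of 13 host genes 1 fell and 0 rose, where 2.56% of all genes fell. With the trend removed, 0 of 38 pseudogenes and 2 of 77 mitochondrial ribosomal proteins fell, where 1.73% of all genes did. Of 12 host genes 1 then rose and 0 fell.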

How the data were processed

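Total RNA of mouse brain was sequenced, with 1 library each for AGNHW, Vehicle and Sham, grouped by their titles. The values the authors deposited are raw counts of reads per gene symbol, in whole numbers. The submitters' processing notes name HTSeq 0.6.0, TopHat2 2.0.12, Bowtie2 2.2.3 and the build mm9, without settings in the sources used here. No gene summed to under 21 counts over the 3 libraries, so genes of lower counts are not among those compared.

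From the counts, TMM factors were computed with edgeR 4.0.16 in R 4.3.3 (1.0 in AGNHW, 0.968 in Vehicle and 1.03 in Sham). Ratios are of TMM-scaled CPM with exact conditional binomial intervals. The sources used here mention no molecular identifiers, and reads without them are not independent molecules, so the intervals cover counting error only. Log2 ratios and medians used a prior of 5 counts, scaled by library. The trend was a natural spline of log transcript length and GC content (4 degrees of freedom each), fitted on genes outside the set with at least 10 CPM. Lengths and GC came from the GENCODE M21 annotation, as the median over complete protein-coding transcripts (over all transcripts of non-coding genes), and had a value for all 76 genes. Promoter windows and their coordinates are RefSeq's on GRCm38.p6, which is not the build of the counts. The scripts were tested on simulated counts.

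With 1 library per group no test was possible. Full values were given for the 5 highest and 5 lowest genes per comparison, up to 15 past the size rule, and a fixed list of genes with known roles, except a few genes that are not reported here. The members, gene lists and rules were chosen with earlier results of these data known. The alternatives were plain CPM, DESeq2 1.42.0 size factors, TMM without the set, no filter on low values or a minimum of 10 CPM, a prior count of 1, lower (log2 of 0.32) and higher (2-fold) limits, removal of the trend with or without expression level, the sum without the 5 most abundant genes, and shares without mitochondrial genes.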

Additional observations from a re-analysis of the deposited data

How the results depend on the processing

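With 1 library per group, nothing here has a replicate check, and neither a test nor leaving out a replicate was possible. No paired analysis was possible because each group has 1 library. In Vehicle against Sham, 43 genes passed the size rule as higher; the count was 24 with plain CPM (5.72% of all genes), 7 with the length and GC trend removed (4.46%), 5 with level removed as well (5.19%), 69 at a lower limit of 0.32 on the log2 scale (21.7% of all genes) and 1 at 2-fold (1.97%). The median of 0.62 went to 0.53 with plain CPM, 0.22 with the trend removed and 0.17 with level as well, and the summed ratio of 1.54 to 1.45 with plain CPM and 1.53 without the 5 most abundant genes. In AGNHW against Vehicle, the count of lower genes of 0 went to 24 at that lower limit (8.45% of all genes) and to 2, Rpl24 and Rpl3l, with no filter (2.95%). The median of -0.28 went to -0.059 with the trend removed and -0.039 with level as well, and the summed ratio of 0.823 to 0.855 with plain CPM. In AGNHW against Sham, the 1 higher gene became 2 with the trend removed (2.88% of all genes), or with level as well (3.27%), and 40 at that lower limit (9.9% of all genes). There, 1 gene, Rpl24, was lower with no filter (5.69%). The median of 0.33 went to 0.17 with the trend removed and 0.14 with level as well, and the summed ratio of 1.27 to 1.24 with plain CPM. Shares of counts without mitochondrially encoded genes were 1.43% in AGNHW, 1.68% in Vehicle and 1.16% in Sham. The counts change with the limit because many genes lie near it; the cause of the other shifts was not tested. The other 83 values, among them those with DESeq2 size factors, with TMM factors computed without the set, and, chosen after seeing the data, with pseudogene reads added or without Rps27a, lay within 1.5 times of the reported count, within the counting interval of a ratio, or near the reported median (with plain CPM, -0.22 for AGNHW against Vehicle and 0.29 for AGNHW against Sham), and no value changed direction under any of these alternatives.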
